A study of Mus musculus with 22 samples.

Results

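The comparison described here was between the entorhinal cortex (EC) and the hippocampus (HIP) of euploid (wt) mice. Its members were the 10 libraries labelled wt, 5 from the HIP and 5 from the EC, out of 22 libraries in the series, and each mouse gave 1 library of each region, so that 5 of the 11 mice entered it. The mice were males aged 5 to 6 months on a mixed B6C3B background, littermates of Ts66Yah mice, a model of Down syndrome that carries an additional copy of a segment of mouse chromosome 16. No treatment is named in the labels. The other 12 libraries, from 6 Ts66Yah mice, were used only to look at the same contrast in other animals. Each library came from RNA of a whole dissected region, and the borders of the dissection are not given in the sources used here.

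The HIP and the EC are partners in memory. Superficial EC neurons send the perforant path to the dentate gyrus and the CA fields, and CA1 and the subiculum send axons back to the deep layers of the EC. The HIP is a cortex of simple layering with granule cells in the dentate gyrus and pyramidal cells in CA1 to CA3, it borders the lateral ventricle with its choroid plexus and ependyma, and it lies beside the myelinated fimbria and alveus. The EC lies at the surface of the brain, covered by meninges, with layered excitatory neurons and close neighbours in the perirhinal cortex, the claustrum, the endopiriform nucleus and the amygdala.

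Gene activity was read as CPM (counts scaled to a common library total by TMM) and tested with edgeR with the mouse as a block. Log2 fold changes are EC relative to HIP, so that positive values mean a higher level in EC, and ± after a fold change is its standard error (n = 5 pairs). A gene is called higher or lower below an adjusted p of 0.05. Of 17935 genes tested, 9562 were called (53.3%), of which 4724 were higher in EC (26.3%) and 4838 were higher in HIP (27%). These shares are the background for the counts of list members called below. The call alone says little about size, and genes that were also at least 2-fold apart are treated below as marking a region: 2349 genes (13.1%), 842 higher in EC (4.69%) and 1507 higher in HIP (8.4%). Of these, 143 and 297 lay between 4-fold and 8-fold in EC and HIP, and 66 and 126 lay at 8-fold or more. EC and HIP values did not overlap for 6328 of all tested genes, 744 of the EC markers and 1302 of the HIP markers. A lack of overlap is therefore common among the genes described below. The median log2 fold change over all tested genes was 0.01. When libraries were scaled by their total alone, the median of all genes moved to -0.07, and 38% of calls were higher in EC instead of 49.4%. With tissue counts, fewer cells of a type and less RNA per cell cannot be told apart, and this holds for every result that follows.

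Libraries held 25900479 to 50105778 counted reads in HIP (median 34636712) and 33205242 to 43094619 in EC (median 34083374), and mitochondrial transcripts took between 3.68% and 5.09% of the reads. Some libraries stood apart. The HIP library of mouse 4 held little choroid plexus RNA, the EC library of mouse 2 held more RNA of striatal markers than the other EC libraries, and the EC library of mouse 1 held as much Malat1 as the HIP libraries. The values are given beside the genes they touch. Leaving out any of the mice kept between 2291 and 2319 of the 2349 marker genes called in the same direction. The marker genes had been picked with all mice, so these counts are not independent of that choice.

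The promoters of 4 marker genes are shown first, a pair for each region. Dsp and Rasgef1c were among the genes with the largest change in their direction, and Prox1 and Mef2c were not. Mef2c was picked once its values were known. Dsp and Prox1 mark HIP, and Rasgef1c and Mef2c mark EC. The sequences are the 250 bases before the transcription start in RefSeq on GRCm38.p6, read 5′ to 3′ on the strand of the gene, with matches to the searched letters in capitals.
Dsp, chr13:38151044-38151293, plus strand: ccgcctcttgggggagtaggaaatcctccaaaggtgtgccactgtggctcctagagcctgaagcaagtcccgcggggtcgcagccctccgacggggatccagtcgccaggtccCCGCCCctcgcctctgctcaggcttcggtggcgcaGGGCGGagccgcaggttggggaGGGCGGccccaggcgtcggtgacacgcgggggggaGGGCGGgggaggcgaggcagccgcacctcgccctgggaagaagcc
Prox1, chr1:190170828-190171077, minus strand: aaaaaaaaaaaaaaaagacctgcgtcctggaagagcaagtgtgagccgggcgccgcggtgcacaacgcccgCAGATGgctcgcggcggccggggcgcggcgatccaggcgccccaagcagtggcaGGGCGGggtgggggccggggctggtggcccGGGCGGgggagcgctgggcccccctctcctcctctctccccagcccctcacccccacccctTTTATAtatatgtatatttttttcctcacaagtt
Rasgef1c, chr11:49901585-49901834, plus strand: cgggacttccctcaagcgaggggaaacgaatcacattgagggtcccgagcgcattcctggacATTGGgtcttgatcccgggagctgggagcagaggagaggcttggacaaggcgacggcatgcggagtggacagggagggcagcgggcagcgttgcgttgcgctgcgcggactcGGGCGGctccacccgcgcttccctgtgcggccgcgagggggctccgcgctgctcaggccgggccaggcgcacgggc
Mef2c, chr13:83503784-83504033, plus strand: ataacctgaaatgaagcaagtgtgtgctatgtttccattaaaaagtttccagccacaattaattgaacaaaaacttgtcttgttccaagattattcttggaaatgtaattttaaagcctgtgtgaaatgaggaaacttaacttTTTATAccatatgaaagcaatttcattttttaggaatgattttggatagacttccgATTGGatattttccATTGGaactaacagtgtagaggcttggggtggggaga
The search covered both strands for 7 motifs, none of which contains another. The TATA box was searched as TATAAA. For the GC box the letters were GGGCGG. The third promoter element was CCAAT. An E-box bound by NeuroD-type factors was searched as CAGATG. The cyclic AMP response element was searched as TGACGTCA. For homeodomain factors the core TAATTA was used. The core of steroid receptor sites was taken as AGAACA. Dsp had 4 GC boxes. Prox1 had 2 GC boxes, 1 TATAAA match on the minus strand and 1 CAGATG at position -179. Rasgef1c held 1 CCAAT box and 1 GC box, whereas Mef2c held 2 CCAAT boxes and 1 TATAAA match, all on the minus strand. Among the 11634 protein-coding genes tested that had a promoter in the table, 58% held GGGCGG, 36% CCAAT, 6.58% TATAAA and 10.3% CAGATG. TGACGTCA was in 2.63% of them, TAATTA in 2.48% and AGAACA in 10.6%. Only 79% of the protein-coding genes tested matched the table, so no comparison of promoters between the regions was made.

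Genes with the largest difference toward EC were led by Rasgef1c (chr11:49901835-49980994), an exchange factor for Ras-type GTPases. Its level in mice 1 to 5 was 2.61, 1.86, 2.94, 2.46 and 2.37 CPM in HIP and 45.1, 48.9, 61.7, 50.7 and 62.1 CPM in EC. All EC libraries were above all HIP libraries, with a log2 fold change of 4.46 ± 0.098 (adjusted p = 8.60e-10). Dkkl1, a secreted Dickkopf-like protein, was steady within each region, at 2.09, 1.83, 2.15, 2.08 and 1.90 CPM in HIP and 30.2, 30.1, 39.4, 30.3 and 35.3 CPM in EC (4.04 ± 0.089). The kappa opioid receptor Oprk1 was at 1.32, 1.15, 1.37, 1.48 and 1.67 CPM in HIP and 13.8, 20.1, 18.5, 27.9 and 12.5 CPM in EC, where mouse 4 was the highest (3.68 ± 0.18).

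Another 7 genes of this kind had means between 5.90 CPM and 30.7 CPM in EC. The transglutaminase Tgm3 differed by 3.98 on the log2 scale and Igfn1, a protein with immunoglobulin and fibronectin domains, by 3.92. Atp6ap1l, a relative of a proton pump subunit, differed by 3.71 and Cd6, a surface receptor known from lymphocytes, by 3.64. Myl4 (3.68), a myosin light chain of the atrium, and Tnnc1 (3.63), a cardiac troponin, are muscle genes by name, and were at 10.4, 16.1, 12.9, 12.5 and 20.9 CPM and 8.51, 9.78, 10.1, 10.2 and 10.2 CPM in EC. Ankfn1 closed the list at 3.44. For all 10 the 5 HIP values lay below the 5 EC values, which picking genes by the size and direction of their change in these libraries favours.

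**Figure D1:**
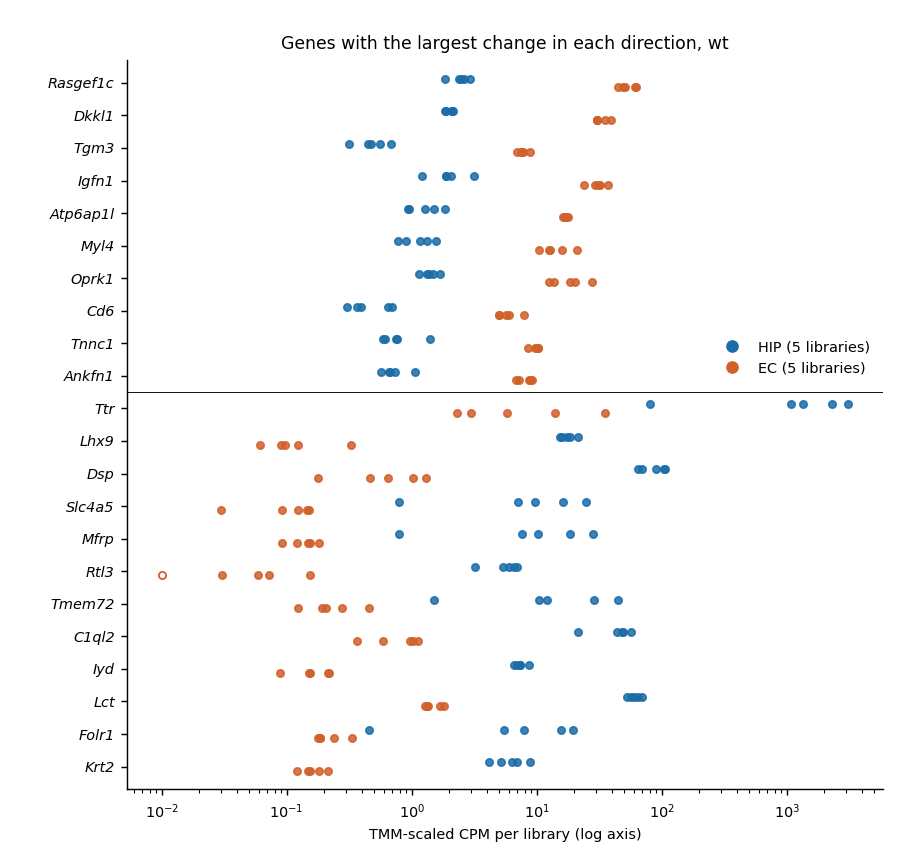
Level of protein-coding genes with the largest log2 fold change toward EC (10 genes) and toward HIP (12 genes), in CPM on a log axis, with 1 point for each wt library (blue HIP, orange EC). The open point is an EC library in which Rtl3 had 0 counts. No gene shows overlap between the regions, and Ttr, Slc4a5, Mfrp, Tmem72 and Folr1 each have 1 HIP point, from mouse 4, far below the other HIP points. The genes were picked by the size and direction of their change in these libraries.

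Genes with the largest difference toward HIP were of several kinds. Lhx9 (chr1:138825186-138848577, minus strand), a LIM homeodomain transcription factor, was at 15.8, 17.5, 15.5, 21.4 and 18.6 CPM in HIP and at 0.122, 0.0906, 0.0962, 0.0617 and 0.325 CPM in EC (-6.96 ± 0.22, adjusted p = 5.72e-09), so that EC libraries held only traces. Dsp (chr13:38151294-38198577), which encodes desmoplakin and labels dentate granule cells, was at 90.2, 105, 106, 64.8 and 70.2 CPM in HIP against 0.643, 1.03, 1.30, 0.463 and 0.177 CPM in EC (-6.92 ± 0.18). A predicted gene on the other strand overlaps Dsp, and whether counting used strand is not given. C1ql2, a synaptic organiser secreted by mossy fibres, was at 48.2, 21.6, 43.7, 49.5 and 56.8 CPM and 0.367, 1.03, 1.13, 0.586 and 0.975 CPM (-5.69 ± 0.24). Mouse 2 had the lowest HIP value, still far above every EC library. Lct, which encodes lactase and is known as a dentate marker, was at 65.0, 53.0, 70.1, 59.6 and 56.9 CPM in HIP and 1.28, 1.36, 1.80, 1.70 and 1.33 CPM in EC (-5.34 ± 0.089). Iyd, an iodotyrosine deiodinase used as a CA3 marker, had a log2 fold change of -5.44 ± 0.19, the retrotransposon-derived Rtl3 of -6.42 ± 0.29 and the keratin Krt2 of -5.23 ± 0.17.

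The remaining 5 genes of this group were Ttr, Slc4a5, Mfrp, Tmem72 and Folr1. Ttr encodes transthyretin, the thyroid hormone carrier that the choroid plexus secretes in bulk. Its level was 1077, 3118, 1363, 80.5 and 2297 CPM in HIP of mice 1 to 5 and 13.9, 35.2, 5.80, 2.96 and 2.30 CPM in EC (-7.05 ± 0.60, adjusted p = 4.46e-06). The HIP value of mouse 4 was far below the other HIP values but above every EC value. All 10 tested genes of the choroid plexus list were higher in HIP, with a median log2 fold change of -4.78, and Kcne2 and Steap1 did not pass the filter on low counts. The summed level of the list was 1241, 3648, 1572, 125 and 2656 CPM in HIP and 24.2, 47.8, 15.4, 13.3 and 13.1 CPM in EC. Without mouse 4 all 12 genes were tested, and all were called higher in HIP. The list includes Otx2 (-4.78), a transcription factor of the plexus, Kl (-3.55), which encodes the hormone co-receptor klotho, and Aqp1 (-3.89), a water channel whose HIP value in mouse 4, 0.606 CPM, fell within the EC range. Of the 1507 genes that mark HIP, 1485 had the same sign in mouse 4 alone and 1217 were at least 2-fold apart there. Mouse 4 was part of the fit that picked these genes, so these counts are not an independent check.

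Markers of the hippocampal fields were compared next. Of the 11 dentate gyrus genes tested, 0 were higher in EC, 7 were higher in HIP and 4 did not pass (median -2.93). All 7 were at least 2-fold apart. Prox1, the homeodomain factor that specifies granule cells, was at 122, 127, 107, 130.1 and 106 CPM in HIP and 11.1, 13.7, 9.91, 12.5 and 10.8 CPM in EC (-3.35 ± 0.063, adjusted p = 3.74e-10). An antisense transcript overlaps Prox1. Tdo2, a tryptophan dioxygenase, had a log2 fold change of -3.23 and the matrix protein Npnt of -1.16. The 4 genes that did not pass included Stxbp6, at 143 CPM in HIP and 140.4 CPM in EC, and Trpc6, at 17.7 CPM in HIP and 14.4 CPM in EC.

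CA field lists were mixed. Of 6 CA1 genes, 2 were higher in EC, 3 were higher in HIP and 1 did not pass. Fibcd1, a chitin-binding receptor, was at 168, 134, 157, 153 and 200.2 CPM in HIP and 13.04, 11.5, 15.7, 14.6 and 17.6 CPM in EC (-3.49 ± 0.069), Spink8, a protease inhibitor, differed by -4.44 and Pou3f1, a POU factor, by -2.76. Wfs1, which encodes wolframin of the endoplasmic reticulum and also labels layer II cells of EC, was higher in EC in each mouse, with overlapping values (180.4 CPM in HIP and 242 CPM in EC; 0.42 ± 0.073), and Mpped1 was higher in EC without overlap (0.63 ± 0.054). Among 6 CA2 genes, 1 was higher in EC, 4 were higher in HIP and 1 did not pass. Here Amigo2, an adhesion molecule, fell by 2.20 and Rgs14, a brake of G protein signalling, by 0.77 in EC on the log2 scale, and Pcp4, a calmodulin-binding peptide, was higher in EC (1.16 ± 0.084). For CA3, 1 was higher in EC, 3 were higher in HIP and 2 did not pass, of 6 genes. The kainate receptor subunit Grik4 (-1.33 ± 0.098) and the apoptosis regulator Bok (-1.0 ± 0.11) were higher in HIP, whereas Coch, a secreted matrix protein, was at 5.49, 8.33, 5.19, 3.15 and 8.79 CPM in HIP and 42.4, 54.4, 41.8, 39.4 and 49.4 CPM in EC, which is the opposite direction (2.92 ± 0.13). Of 4 hilar mossy cell genes, Ajap1, an adherens junction protein, passed toward EC (0.51) and the other 3 did not pass.

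Cells that are rare in either region were looked at by their own markers. Of the 8 neurogenesis genes tested, 1 was higher in EC, 3 were higher in HIP and 4 did not pass. The share called was near the 53.3% of all tested genes. Igfbpl1, a marker of young granule cells, was at 2.57, 1.29, 1.49, 1.36 and 0.892 CPM in HIP and 0.0306, 0.0906, 0, 0.123 and 0.0886 CPM in EC (-4.46 ± 0.44), and the proliferation marker Mki67 was at 3.34, 3.004, 2.47, 2.27 and 2.20 CPM and 0.949, 0.815, 0.578, 1.11 and 0.620 CPM (-1.72 ± 0.18). Dcx, the microtubule protein doublecortin, went the other way, at 21.97, 18.9, 15.0, 20.5 and 21.3 CPM in HIP and 44.8, 36.9, 29.0, 36.2 and 31.9 CPM in EC (0.87 ± 0.075), and no values of these 3 genes overlapped. Trp73, a transcription factor of Cajal-Retzius cells, the reelin cells of the hippocampal fissure, was at 6.54, 5.40, 8.33, 7.39 and 5.88 CPM in HIP and 0.734, 0.694, 0.602, 0.802 and 0.768 CPM in EC (-3.21 ± 0.15). Reln itself, which other cells also make, is described with the cortical layers.

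Markers of the cortical layers pointed to EC for the upper layers and layer 6. Of 10 upper layer genes, 9 were higher in EC, 0 were higher in HIP and 1 did not pass (median 1.10). Lamp5, a vesicle protein of superficial neurons, was at 58.6, 53.1, 59.8, 55.3 and 48.3 CPM in HIP and 219.6, 274, 241, 222 and 301 CPM in EC (2.19 ± 0.10, adjusted p = 7.58e-08). Cux2, a cut-type homeodomain factor, was at 20.3, 26.4, 23.6, 22.5 and 25.9 CPM and 73.8, 84.0, 81.6, 52.2 and 94.3 CPM (1.69 ± 0.093), with its lowest EC value in mouse 4 and no overlap. Rorb, the receptor-like factor of layer IV (1.65 ± 0.10), Rasgrf2, a Ras exchange factor (1.10 ± 0.053), the calcium buffer Calb1 (1.05 ± 0.079) and Reln, the secreted glycoprotein reelin made by layer II stellate cells (1.10 ± 0.080), were all at least 2-fold higher in EC. Lef1, at 3.07 CPM in HIP and 3.27 CPM in EC, was the gene that did not pass.

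Of 9 layer 6 genes, 7 were higher in EC, 0 were higher in HIP and 2 did not pass (median 1.42). Foxp2, a forkhead factor, was at 1.88, 2.32, 2.23, 1.86 and 1.92 CPM in HIP and 12.6, 17.7, 9.24, 9.65 and 8.21 CPM in EC (2.44 ± 0.15). Ccn2, a matricellular protein of layer 6b, rose from 6.75, 8.52, 6.84, 4.32 and 4.57 CPM to 35.3, 41.0, 32.9, 41.6 and 24.6 CPM (2.50 ± 0.13), and Cplx3, a complexin of the same sublayer, had a log2 fold change of 2.26 ± 0.10. Tbr1, the T-box factor of corticothalamic neurons, was 54.4 ± 3.16 CPM in HIP and 146 ± 9.34 CPM in EC (SD, n = 5), a log2 fold change of 1.42 ± 0.061. Layer 5 was different. Of 7 genes, 1 was higher in EC, 4 were higher in HIP and 2 did not pass. Bcl11b, the zinc finger factor that CA1 and the dentate gyrus also express, was at 155, 139.9, 154, 159.9 and 151 CPM in HIP and 58.6, 52.7, 56.2, 53.4 and 47.5 CPM in EC (-1.505 ± 0.060), Tshz2 fell by 1.84 and the sulfatase Sulf2 by 0.44 in EC, and Etv1, at 99.7 CPM in HIP and 90.8 CPM in EC, did not pass. Fezf2 passed toward HIP (-0.32 ± 0.12) but not without the mouse block (adjusted p = 0.054). Both 2-fold genes of the claustrum and endopiriform list, Oprk1 and the G protein subunit Gnb4 (2.48 ± 0.093), were higher in EC; the other 3 genes of that list did not pass.

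Transcription factors divided almost evenly. Of 82 tested, 32 were higher in EC, 30 were higher in HIP and 20 did not pass, and 14 were at least 2-fold higher in EC and 11 in HIP. Mef2c, a MADS-box factor that limits synapse number, was the most abundant of those higher in EC. It was at 179, 230.0, 209, 211 and 179 CPM in HIP and 1044, 1123, 1082, 1201 and 1066 CPM in EC (2.46 ± 0.062, adjusted p = 1.73e-09). On the HIP side, Zbtb20, which specifies CA1 identity, was at 401, 380.2, 304, 376 and 361 CPM in HIP and 83.5, 53.7, 51.8, 54.95 and 52.5 CPM in EC (-2.64 ± 0.086), with the highest EC value in mouse 1. The proneural factor Neurod6 was at 247, 251, 246, 295 and 273 CPM in HIP and 77.1, 78.0, 68.6, 88.8 and 66.0 CPM in EC (-1.80 ± 0.066), and the orphan nuclear factor Nr4a3 differed by -1.99 ± 0.12, in contrast to its relative Nr4a2 (1.03 ± 0.058), which was higher in EC. None of the EC and HIP values of these 5 factors overlapped, which also held for 6328 of the 17935 genes tested. Of those that did not pass, Hivep2, at 359.5 CPM in HIP and 326 CPM in EC, was the most abundant.

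**Figure D2:**
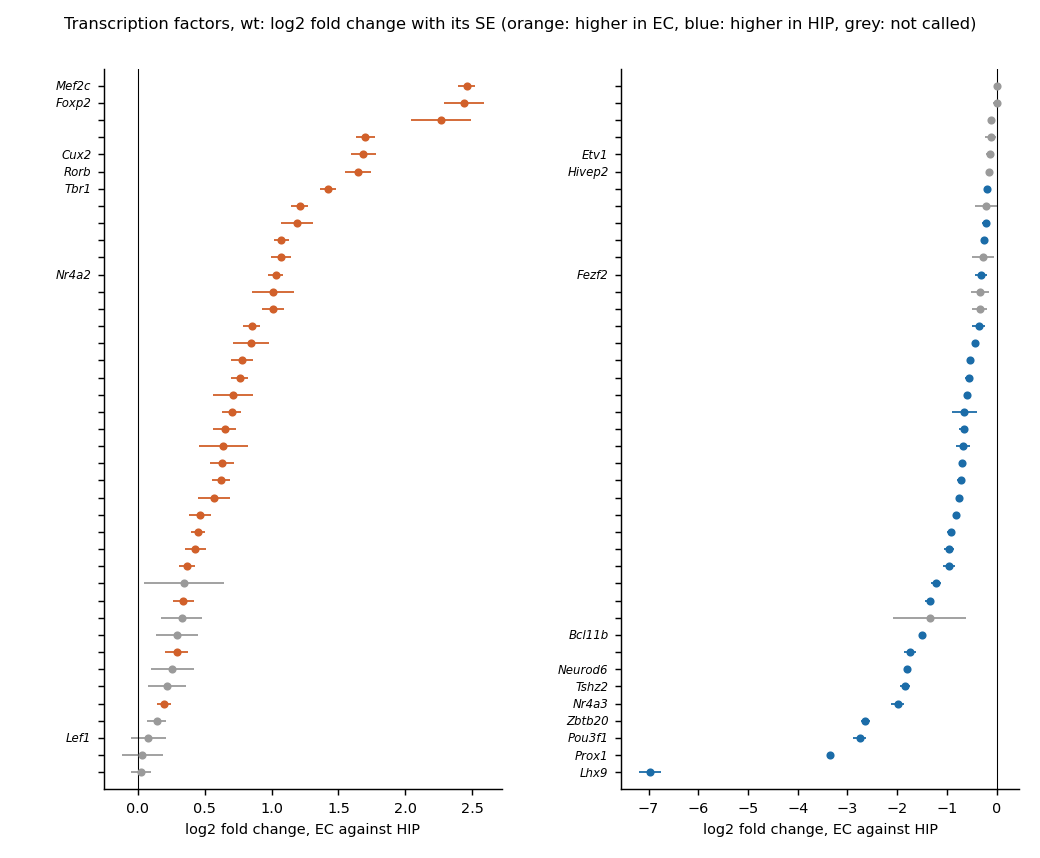
Log2 fold change, EC against HIP, of the 82 tested transcription factors in wt mice, with bars for the standard error (n = 5 pairs), sorted and split over a pair of panels with different x axes; genes described in the text are named. Orange and blue points passed the test toward EC (32) and HIP (30), and grey points (20) did not; Lhx9 and Prox1 lie far out on the HIP side and Mef2c and Foxp2 lead on the EC side.

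Ionotropic glutamate receptors showed opposite changes within a family. All 4 AMPA receptor subunits passed. Gria1, the subunit most tied to synaptic plasticity in CA1, was at 1150, 1069, 1125, 1194 and 1127 CPM in HIP and 405, 359, 392, 430.3 and 387 CPM in EC (-1.52 ± 0.051, adjusted p = 7.43e-09), and Gria2, which sets calcium permeability, was also lower in EC (-0.62 ± 0.066). Gria3 (0.35 ± 0.056) and Gria4 (0.92 ± 0.054) were higher in EC, Gria4 from 72.5, 81.7, 69.7, 76.9 and 71.8 CPM in HIP to 139, 146, 135, 158 and 127 CPM in EC. Per kilobase of exon, Gria1 was at 188 in HIP and 65.3 in EC, and Gria2 at 57.1 in HIP and 37.3 in EC, in CPM per kilobase. The length was that of all annotated exons of a gene together, so these values may not rank the transcripts of different genes. The ratio of Gria1 to Gria2 was smaller in EC, which does not depend on the length used. Of 5 kainate receptor subunits, Grik4 and Grik2 (-0.64 ± 0.057) were higher in HIP, Grik3 (1.04 ± 0.12) and Grik1 (0.27 ± 0.085) in EC, and the remaining subunit did not pass.

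Of 6 NMDA receptor subunits tested, 2 were higher in EC, 2 were higher in HIP and 2 did not pass. Grin2a, the subunit of mature synapses, was at 423, 424, 363, 437 and 407 CPM in HIP and 228, 213, 174, 209 and 172 CPM in EC (-1.05 ± 0.060). Grin3a, a subunit that lowers calcium entry, was at 44.9, 47.2, 38.4, 41.9 and 44.4 CPM and 80.7, 62.2, 69.8, 94.5 and 72.1 CPM (0.80 ± 0.094). Grin2b (-0.26 ± 0.081) and Grin2d (0.31 ± 0.11) passed by small amounts, with overlapping values, and both lost the call without the mouse block. The obligatory subunit Grin1, at 317 CPM in HIP and 289 CPM in EC, did not pass (-0.14 ± 0.068). With library totals as the only scaling, 1 NMDA gene passed toward EC and 4 toward HIP. Among 7 metabotropic receptors, 4 were higher in EC, 0 were higher in HIP and 3 did not pass. The share called was near the 53.3% of all tested genes. Presynaptic Grm8 differed most (1.42 ± 0.10), and Grm5, at 310.0 CPM in HIP and 289 CPM in EC, did not pass.

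GABA-A receptor subunits differed strongly. Of 14 tested, 9 were higher in EC, 4 were higher in HIP and 1 did not pass (median 0.34). Gabra3 was at 68.9, 76.7, 62.6, 64.5 and 71.9 CPM in HIP and 290.4, 256, 290.0, 351 and 276 CPM in EC (2.08 ± 0.091, adjusted p = 5.05e-08). Gabra5, the subunit of tonic inhibition on pyramidal dendrites, showed the opposite, with 215, 210.2, 194, 229.7 and 220.2 CPM in HIP and 82.7, 74.3, 77.1, 91.1 and 67.5 CPM in EC (-1.45 ± 0.066). Neither gene had overlapping values. The extrasynaptic Gabrd was higher in EC, from 32.6, 30.8, 35.6, 37.2 and 31.1 CPM to 71.5, 91.3, 79.4, 66.4 and 92.7 CPM (1.25 ± 0.10). The less common subunits Gabrq (2.19 ± 0.30) and Gabrr2 (-2.52 ± 0.39) differed as much but at low level, with means of 1.57 CPM in EC and 1.36 CPM in HIP, and the value of Gabrr2 without mouse 2 was -3.11. Both GABA-B subunits, Gabbr1 (0.22 ± 0.056) and Gabbr2 (0.42 ± 0.055), were slightly higher in EC.

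**Figure D3:**
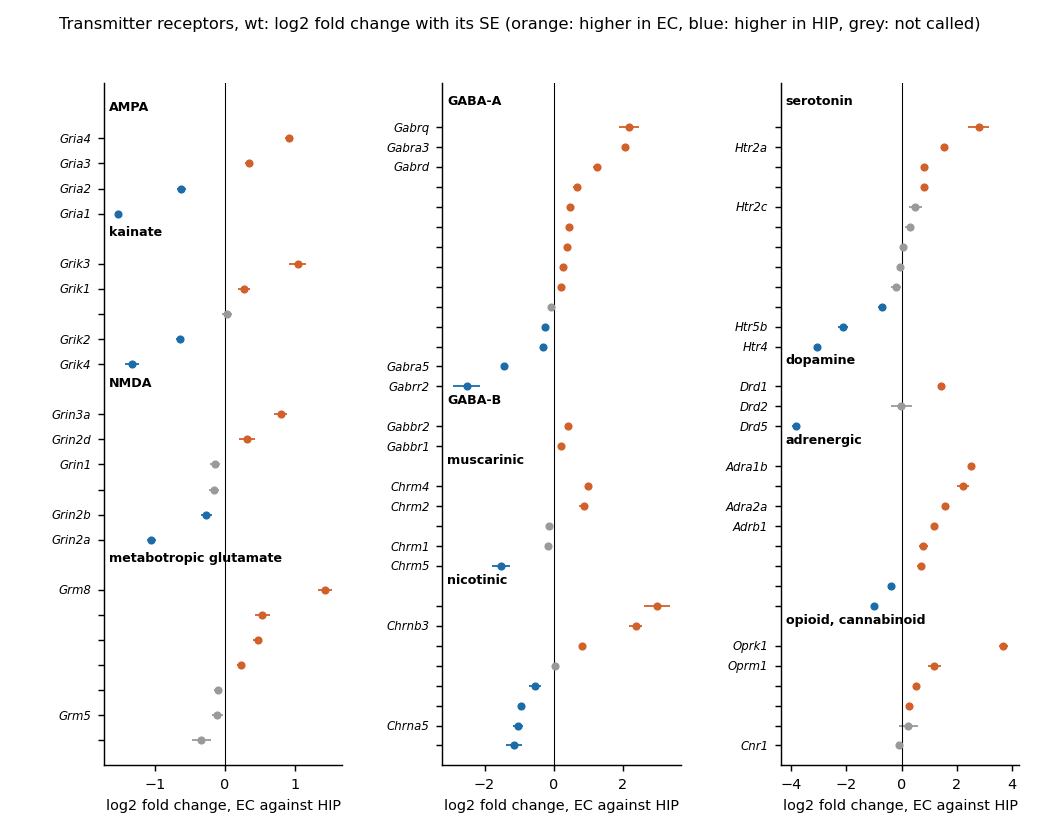
Log2 fold change, EC against HIP, of transmitter receptor genes in wt mice, with bars for the standard error (n = 5 pairs); panels have different x axes and genes described in the text are named. Orange and blue points passed the test toward EC and HIP and grey points did not. Most receptor families hold members on both sides, among them AMPA (2 and 2) and GABA-A (9 and 4).

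Receptors for the monoamines differed by subtype. Of 8 adrenergic receptors, 6 were higher in EC, 2 were higher in HIP and 0 did not pass (median 0.98). Adra1b was at 3.65, 3.88, 3.47, 3.64 and 4.68 CPM in HIP and 17.9, 22.01, 23.3, 21.8 and 23.4 CPM in EC (2.49 ± 0.093), and Adra2a (1.58 ± 0.087) and Adrb1 (1.17 ± 0.11) were also more than 2-fold higher in EC. For serotonin, 4 were higher in EC, 3 were higher in HIP and 5 did not pass, of 12, a share called near the 53.3% of all genes. Htr4, coupled to cyclic AMP, was at 16.1, 17.9, 13.6, 13.04 and 14.6 CPM in HIP and 2.26, 2.75, 1.59, 1.48 and 1.21 CPM in EC (-3.04 ± 0.13), and Htr5b differed by -2.11 ± 0.18. Htr2a, the receptor for hallucinogens on cortical pyramidal cells, was at 18.3, 20.6, 17.7, 15.4 and 15.3 CPM and 45.3, 56.1, 51.8, 66.7 and 36.5 CPM (1.53 ± 0.11), without overlap. Htr2c, at 46.1 CPM in HIP and 64.5 CPM in EC, did not pass.

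Dopamine receptors of the same signalling class were split. Drd5 was at 7.82, 10.8, 8.64, 10.8 and 9.20 CPM in HIP and 0.398, 0.725, 0.553, 1.141 and 0.591 CPM in EC (-3.82 ± 0.16, adjusted p = 3.11e-08), whereas Drd1 was at 6.36, 7.82, 7.23, 7.31 and 5.47 CPM in HIP and 18.8, 22.01, 13.8, 21.5 and 17.2 CPM in EC (1.43 ± 0.11). No values of either gene overlapped. Drd2 had 2.64, 2.003, 2.175, 2.69 and 3.43 CPM in HIP and 1.53, 8.45, 2.14, 1.70 and 1.77 CPM in EC, did not pass over all mice (-0.02 ± 0.38) and stood out in the EC of mouse 2. Of 7 histamine and adenosine receptors tested, 3 were higher in EC, 1 was higher in HIP and 3 did not pass. The histamine receptors Hrh3 (1.68 ± 0.094) and Hrh1 (1.503 ± 0.088) were higher in EC and the adenosine receptor Adora1 in HIP (-0.60 ± 0.068). Among 5 muscarinic receptors, Chrm4 (1.002 ± 0.10) and Chrm2 (0.88 ± 0.13) were higher in EC, Chrm5 in HIP (-1.51 ± 0.26, mean 1.22 CPM), and the abundant Chrm1, at 302 CPM in HIP and 272 CPM in EC, did not pass. Of 8 nicotinic subunits, 3 were higher in EC, 4 were higher in HIP and 1 did not pass, with Chrna5 higher in HIP (-1.03 ± 0.14) and Chrnb3 in EC (2.38 ± 0.19, mean 2.93 CPM). Besides Oprk1, the mu opioid receptor Oprm1 (1.18 ± 0.23) was higher in EC, and the cannabinoid receptor Cnr1, at 229 CPM in HIP and 214 CPM in EC, did not pass.

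Neuropeptides were mostly an EC feature. Of 17 tested, 12 were higher in EC, 1 was higher in HIP and 4 did not pass (median 1.35), and 10 of the 12 were at least 2-fold apart. Cartpt, a satiety peptide, was at 0.835, 0.562, 0.764, 0.682 and 1.09 CPM in HIP and 7.44, 5.55, 7.89, 3.92 and 8.47 CPM in EC (3.09 ± 0.15). Adcyap1, which encodes PACAP, was at 4.59, 5.98, 4.51, 5.61 and 5.996 CPM and 21.2, 30.4, 25.2, 40.1 and 29.5 CPM (2.43 ± 0.096), and the tachykinin gene Tac2 differed by 2.23 ± 0.13. Pdyn, which encodes the precursor of the ligands of Oprk1, was 16.9 ± 0.785 CPM in HIP and 46.0 ± 7.03 CPM in EC (SD, n = 5; 1.43 ± 0.096). Neurotensin, Nts, was the peptide higher in HIP, at 9.04, 8.57, 9.48, 10.7 and 6.80 CPM against 1.07, 1.18, 2.41, 3.08 and 1.24 CPM (-2.38 ± 0.18). Cck, at 133 CPM in HIP and 134 CPM in EC, and Sst, at 142 CPM in HIP and 162 CPM in EC, did not pass. The receptor for cholecystokinin, Cckbr, was at 10.2, 12.2, 12.7, 12.5 and 13.2 CPM in HIP and 69.1, 63.2, 68.0, 63.2 and 75.8 CPM in EC (2.48 ± 0.075, adjusted p = 4.01e-09). Of 30 peptide receptors, 13 were higher in EC, 9 were higher in HIP and 8 did not pass. The presynaptic neuropeptide Y receptor Npy2r was at 64.4, 77.0, 68.1, 82.5 and 64.7 CPM in HIP and 9.70, 8.69, 9.94, 12.1 and 8.95 CPM in EC (-2.85 ± 0.075), while its ligand Npy was higher in EC (1.02 ± 0.066). Trhr, the receptor for thyrotropin-releasing hormone (2.34 ± 0.20), was higher in EC, and the vasopressin receptor Avpr1b, a CA2 marker, was at 1.39, 1.22, 1.98, 1.74 and 1.17 CPM in HIP and at most 0.0617 CPM in EC (-5.33 ± 0.34).

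Some nuclear receptors also marked the regions. Of 13 tested, 6 were higher in EC, 2 were higher in HIP and 5 did not pass. Over all tested genes 53.3% were called. Of these receptors, 3 were at least 2-fold higher in EC and 2 in HIP. Nr3c2, the mineralocorticoid receptor, was at 232, 228, 202, 245 and 229 CPM in HIP and 45.4, 44.8, 45.5, 50.9 and 42.9 CPM in EC (-2.31 ± 0.058, adjusted p = 1.73e-09). The oestrogen receptor Esr1 was at 1.98, 1.95, 2.21, 2.58 and 2.29 CPM in HIP and 6.88, 4.98, 7.92, 10.4 and 9.98 CPM in EC (1.83 ± 0.13), Rxrg differed by 2.21 ± 0.22 and Rara, higher in HIP, by -1.30 ± 0.089. Thra, at 862 CPM in HIP and 941 CPM in EC, did not pass. In the neurotrophin system, the receptor Ntrk2 was higher in EC (0.56 ± 0.055), and the ligands Ntf3 (-1.395 ± 0.19) and Bdnf (-0.42 ± 0.11) and the receptors Ntrk3 (-0.63 ± 0.068) and Ngfr (-1.57 ± 0.17) were higher in HIP. Bdnf overlapped between the regions, with its highest EC value, 68.4 CPM, in mouse 4, and it lost the call without the mouse block.

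Ion channels followed the same mixed pattern. Of 48 potassium channel genes, 24 were higher in EC, 15 were higher in HIP and 9 did not pass. The modulatory subunits Kcnf1 (1.85 ± 0.074) and Kcnv1 (1.43 ± 0.064) and the ether-a-go-go type channel Kcnh4 (2.12 ± 0.13) were higher in EC, and Kcng2 was higher in HIP (-2.60 ± 0.22). Kcnf1 was at 73.6, 72.1, 48.8, 72.2 and 77.2 CPM in HIP and 264, 228, 220.0, 260.2 and 259.5 CPM in EC. Of 15 calcium channel genes, 6 were higher in EC, 5 were higher in HIP and 4 did not pass. The T-type Cacna1h was at 122, 117, 141, 118 and 124 CPM in HIP and 34.9, 31.9, 40.2, 30.6 and 36.5 CPM in EC (-1.84 ± 0.054), and the auxiliary subunits Cacng8 (-1.01 ± 0.089) and Cacng3 (1.36 ± 0.059), which traffic AMPA receptors, moved in opposite directions. Hcn4, of the pacemaker channels, was higher in EC (1.90 ± 0.14). Of 8 voltage-gated sodium channel genes, 1 was higher in EC, 4 were higher in HIP and 3 did not pass. Scn3b (-0.84 ± 0.072) differed most toward HIP, and Scn2a (0.42 ± 0.067) was the gene higher in EC. The number called toward HIP was 2 without mouse 1 or mouse 5, 5 without mouse 2 and 6 with library totals as the only scaling. The neuronal calcium sensor Hpca, hippocalcin, was at 2060, 1772, 2123, 2269 and 2188 CPM in HIP and 479.7, 653, 554, 435 and 565 CPM in EC (-1.96 ± 0.11), whereas Camk2a, at 4607 CPM in HIP and 4737 CPM in EC, and Nrgn, at 767 CPM in HIP and 758 CPM in EC, did not pass.

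Guidance and adhesion molecules held some of the sharpest contrasts. Of 19 semaphorin genes, 7 were higher in EC, 8 were higher in HIP and 4 did not pass. Sema3a, a repellent ligand, was at 4.42, 4.37, 4.72, 4.24 and 3.10 CPM in HIP and 44.7, 43.6, 39.1, 52.6 and 40.4 CPM in EC (3.39 ± 0.10), and the receptor Plxnd1 at 30.9, 27.4, 32.1, 26.2 and 33.0 CPM and 158, 142, 223, 159 and 162 CPM (2.48 ± 0.080). The Sema3a receptor Nrp1 went the other way, with 68.2, 73.4, 56.5, 63.7 and 75.9 CPM in HIP and 16.5, 17.8, 14.6, 19.7 and 16.0 CPM in EC (-1.998 ± 0.080). Of 22 ephrin genes, 5 were higher in EC, 12 were higher in HIP and 5 did not pass. The ligand Efna5 was at 4.49, 4.52, 3.96, 4.32 and 3.99 CPM in HIP and 26.4, 30.9, 24.0, 22.6 and 23.5 CPM in EC (2.58 ± 0.082), while the receptors Epha6 (-1.54 ± 0.085) and Epha7 (-1.46 ± 0.091) were higher in HIP. The repellent Slit1 (-2.10 ± 0.061), the receptor Robo3 (-2.73 ± 0.22) and the netrin receptor Unc5b (-1.68 ± 0.11) were higher in HIP, and Unc5d was higher in EC (1.496 ± 0.11). Among 15 cadherins, 9 were higher in EC, 5 were higher in HIP and 1 did not pass, with Cdh4 (2.28 ± 0.092) and Cdh13 (1.91 ± 0.061) toward EC and Cdh24 (-1.70 ± 0.17) toward HIP. Wnt4 (2.02 ± 0.13) and Wnt9a (1.15 ± 0.11) were higher in EC, and the synaptic adhesion gene Lrrtm3 also (1.82 ± 0.067). Counted whole, 5 of 10 Wnt genes were higher in EC and 1 in HIP, of 16 slit and netrin genes 4 and 8, and of 16 synaptic organisers 11 and 3.

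Interneuron markers differed by subtype. Of 19, 9 were higher in EC, 3 were higher in HIP and 7 did not pass (median 0.24). The GABA-synthesising enzyme Gad1, at 411 CPM in HIP and 419 CPM in EC, Pvalb, at 35.5 CPM in HIP and 34.5 CPM in EC, and the vesicular transporter Slc32a1, at 55.8 CPM in HIP and 62.8 CPM in EC, did not pass, and Gad2, which also makes GABA, was slightly higher in EC (0.25 ± 0.057). Vip, the peptide of disinhibitory interneurons, was at 19.99, 19.5, 17.6, 27.7 and 28.3 CPM in HIP and 71.3, 63.5, 72.6, 83.6 and 85.5 CPM in EC (1.75 ± 0.076), and Npy was at 32.2, 38.4, 37.5, 32.7 and 37.2 CPM and 63.1, 83.7, 85.5, 57.1 and 75.3 CPM. Tac1 (1.83 ± 0.13), Crh (1.42 ± 0.18) and Cort (1.35 ± 0.23) were more than 2-fold higher in EC. Chodl, a marker of long-range somatostatin cells, had means of 0.208 CPM in HIP and 1.10 CPM in EC (2.36 ± 0.29). Toward HIP, Adarb2 (-0.87 ± 0.066), Kit (-0.42 ± 0.097) and Ndnf (-0.27 ± 0.10) passed.

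Glia and vessels were compared with lists of cell type markers. All 13 oligodendrocyte genes were higher in HIP, each at least 2-fold, with a median of -2.20. Mbp, the myelin basic protein gene, was at 4914, 3636, 5096, 3536 and 3453 CPM in HIP and 1185, 1652, 748, 663 and 919.6 CPM in EC (-2.06 ± 0.19). The summed level of the list was 11550, 9551, 11860, 8613 and 8235 CPM in HIP and 2713, 3785, 1629, 1501 and 1890 CPM in EC, highest in EC in mice 2 and 1. Of 8 genes of the precursor list, 1 was higher in EC, 5 were higher in HIP and 2 did not pass (median -0.95). Bcas1 (-2.18 ± 0.16) and Enpp6 (-1.81 ± 0.17), which mark newly formed oligodendrocytes, differed most, and an antisense transcript overlaps Bcas1. Sox10 (-1.41 ± 0.11) and Olig2 (-0.95 ± 0.087) were also higher in HIP, whereas Pdgfra, the receptor that defines precursors, was higher in EC (0.43 ± 0.071) and Cspg4, at 23.5 CPM in HIP and 26.2 CPM in EC, did not pass.

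Astrocyte genes held 1 large difference. Gfap, the intermediate filament, was at 436, 329.6, 421, 327 and 382 CPM in HIP and 97.5, 75.5, 81.3, 90.6 and 127 CPM in EC (-2.02 ± 0.10, adjusted p = 1.16e-07). Of the 13 genes, 6 were higher in EC, 1 was higher in HIP and 6 did not pass, a share called near the 53.3% of all genes. Aqp4, at 162 CPM in HIP and 149 CPM in EC, and Gja1, at 244 CPM in HIP and 222 CPM in EC, did not pass, and Mfge8, a secreted opsonin, was higher in EC (0.83 ± 0.078). All 11 microglia genes were called higher in EC, with a median of 0.35 and 0 genes at 2-fold, and 5 of them were called without the mouse block. Aif1, for example, was at 6.502, 3.93, 4.86, 9.13 and 7.72 CPM in HIP and 10.5, 5.62, 8.73, 12.5 and 11.3 CPM in EC (0.61 ± 0.093). For Aif1 the regions overlapped, but EC exceeded HIP in each mouse. Of 9 endothelial genes, 7 were higher in EC, 0 were higher in HIP and 2 did not pass (median 0.34). Cdh5, the cadherin of endothelial junctions, led with 0.50 ± 0.082.

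Markers of tissue beside the regions moved too. All 5 ependymal genes were higher in HIP (median -2.11), and Foxj1, the master factor of motile cilia, was at 10.8, 10.9, 13.6, 7.73 and 13.3 CPM in HIP and 1.68, 3.11, 1.85, 1.70 and 2.30 CPM in EC (-2.41 ± 0.15). Of 10 meningeal genes, 6 were higher in EC, 1 was higher in HIP and 3 did not pass (median 0.62). The collagen gene Col1a2 (1.07 ± 0.22), the retinoic acid enzyme Aldh1a2 (1.37 ± 0.16) and the prostaglandin D synthase Ptgds (1.19 ± 0.12) were at least 2-fold higher in EC. Ptgds, with means of 381 CPM in HIP and 880.0 CPM in EC, made up most of the summed level of the list, which was 425, 505, 625, 413 and 432 CPM in HIP and 658, 834, 1224, 1156 and 1022 CPM in EC. All 5 erythroid genes tested were higher in EC (median 1.35), with Hbb-bs at 94.5, 104, 138, 84.3 and 118 CPM in HIP and 202, 193, 409, 331 and 274 CPM in EC (1.35 ± 0.13). Globin genes have near-identical copies among which reads may be split. The part of meninges and blood in the small EC excess of microglial and endothelial genes was not tested.

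Striatal markers require the EC library of mouse 2 to be considered apart. The list's summed level was 184, 193, 179, 174 and 187 CPM in HIP and 265, 505, 267, 287 and 270.2 CPM in EC. Adora2a, the adenosine receptor of striatopallidal neurons, was at 1.56, 1.78, 1.80, 1.402 and 1.76 CPM in HIP and 2.20, 23.0, 1.76, 1.91 and 2.04 CPM in EC, a spread set by mouse 2. Rgs9 was likewise 18.3 CPM in that library and at most 5.36 CPM in the other EC libraries. Over all mice, 6 were higher in EC, 0 were higher in HIP and 5 did not pass, of 11 genes. Over all tested genes 53.3% were called. Without mouse 2, 5 were higher in EC and 3 in HIP of 10 tested. Drd2 (-0.59, adjusted p = 0.023) and Rgs9 (-0.42, adjusted p = 0.014) were then called higher in HIP, and Penk, an enkephalin gene with 0.90 ± 0.29 over all mice, lost its call (0.55, adjusted p = 0.053), as it did without mouse 3 or mouse 4. Gpr6, an orphan receptor (2.14 ± 0.18), Drd1 and the phosphatase inhibitor Ppp1r1b (0.80 ± 0.081) stayed called higher in EC without mouse 2. Of 5 thalamic genes, 1 was higher in EC, 2 were higher in HIP and 2 did not pass, also near that share. Prkcd, a protein kinase C, was higher in HIP (-2.15 ± 0.084), Rgs16, a regulator of G protein signalling that a predicted gene overlaps, was higher in EC (0.66 ± 0.084), and Slc17a6, the thalamic glutamate transporter gene, at 35.6 CPM in HIP and 31.4 CPM in EC, did not pass. Without mouse 4, 4 of the 5 were called higher in HIP, Slc17a6 among them (-0.32), and 1 was on leaving out any other mouse.

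**Figure D4:**
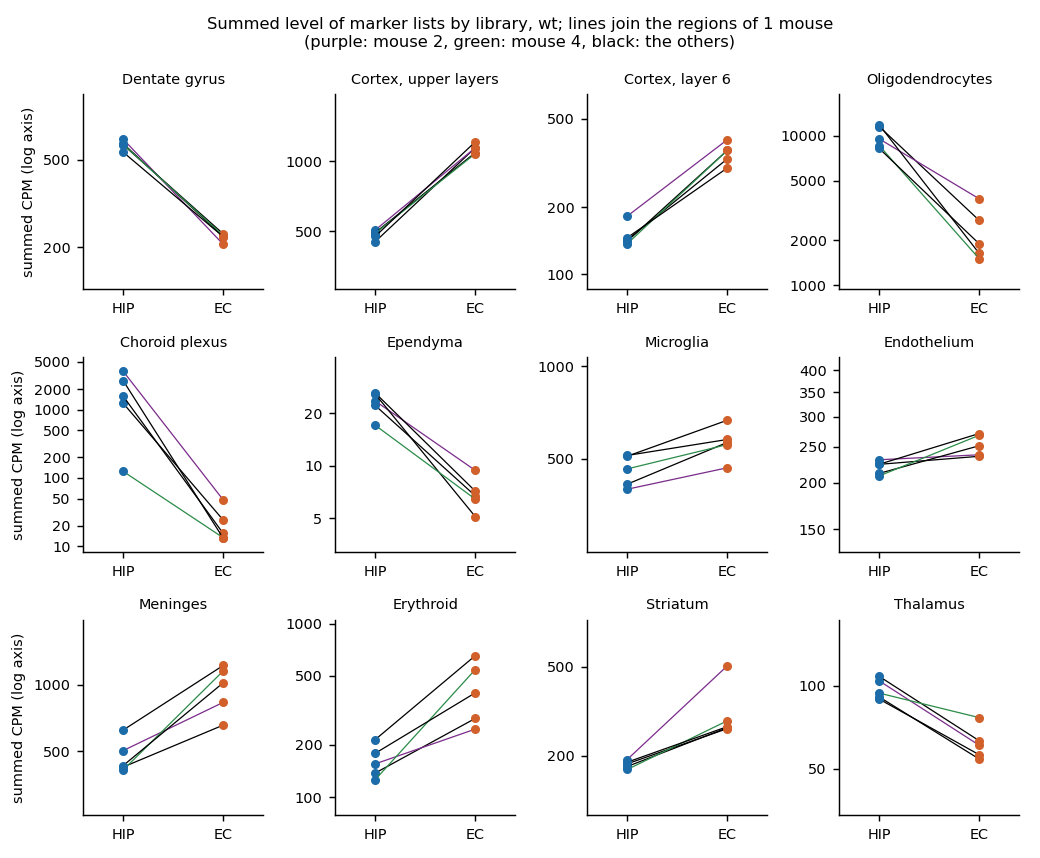
Summed level (CPM, log axis) of 12 marker lists in each wt library, with lines joining the HIP and EC libraries of the same mouse. The HIP library of mouse 4 (green) has 125 CPM of choroid plexus genes against 1241 or more in the other HIP libraries, and the EC library of mouse 2 (purple) has 505 CPM of striatal genes against at most 287 in the other EC libraries.

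Transcripts that do not encode proteins leaned toward HIP. Protein-coding genes were 82.1% of the tested genes, 80.5% of the 842 EC markers and 66.5% of the 1507 HIP markers, leaving 505 other HIP markers. Several were long nuclear RNAs, named here once their values were known. Neat1, the scaffold of paraspeckles, was at 135, 139.9, 135, 117 and 112 CPM in HIP and 25.0, 21.1, 11.3, 9.31 and 10.6 CPM in EC (-3.14 ± 0.17). Miat (-2.50 ± 0.14), Firre (-2.65 ± 0.12), Meg3 (-2.08 ± 0.15) and Snhg11 (-2.03 ± 0.12) were also higher in HIP. Malat1 was at 544, 695, 478, 616 and 779.5 CPM in HIP and 584, 98.3, 55.4, 72.9 and 80.4 CPM in EC (-2.53 ± 0.44, adjusted p = 6.66e-04), so that mouse 1 had a similar level in both regions and the other 4 mice did not. Together, these 6 RNAs summed to between 2809 and 3589 CPM in HIP, to 1496 CPM in the EC of mouse 1, to 834 CPM in that of mouse 2 and to between 422 and 495 CPM in the others. Without mouse 1, 472 of the 505 genes, which had been picked with all mice, were still at least 2-fold higher in HIP. Whether the preparation of the RNA and libraries had a part in this difference was not tested.

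The same contrast in 6 Ts66Yah mice, which share no library with the wt mice, was then laid beside it. In Ts66Yah, 10647 of 18043 genes were called between EC and HIP (59%), 28.9% of those tested toward EC and 30.1% toward HIP. Of all genes tested in wt, 17636 were tested there, 15762 had the same sign, and 2177 were also called and at least 2-fold apart. Of the 842 wt EC markers 802 were tested there, 801 had the same sign and 632 were called and at least 2-fold apart. Of the 1507 HIP markers 1441 were tested, 1438 had the same sign and 1241 were called and at least 2-fold apart. Lhx9 had a log2 fold change of -6.64 in Ts66Yah, Prox1 of -3.34, Rasgef1c of 3.83 and Mef2c of 2.44. The summed level of the meningeal list had a median of 660.0 CPM in HIP and 594 CPM in EC of Ts66Yah, with overlapping ranges, and Ptgds (0.27), Col1a2 (0.40) and Aldh1a2 (0.45) were not called (adjusted p = 0.23, 0.13 and 0.065 in edgeR). A difference between the genotypes in the contrast itself, tested over all 22 libraries with edgeR, was called for 0 of 19074 genes, with 726 genes at an unadjusted p under 0.05. DESeq2 also called 0 genes, with 572 genes below that unadjusted p. Genes that were not called are not thereby shown to be equal.

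**Figure D5:**
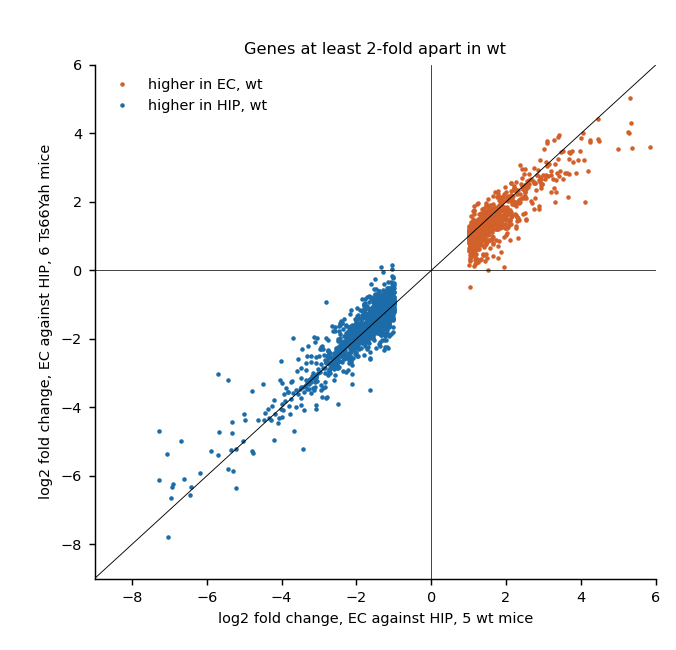
Log2 fold change, EC against HIP, in 5 wt mice (x axis) and in 6 Ts66Yah mice (y axis) for the 2-fold wt markers tested in both, 802 higher in EC (orange) and 1441 higher in HIP (blue), with the line of equality. All but 1 of the EC markers and all but 3 of the HIP markers have the same sign on both axes. Of all 17636 genes tested in both, 15762 have the same sign.

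The limit of 2-fold was set by convention. Just inside it lay Bok and the choline transporter Slc44a1 (both -1.0). Just outside lay the laminins Lama4, higher in EC, and Lama5, higher in HIP, whose values round to the limit (1.0 and -1.0).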

How the data were processed

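Total RNA of each dissected region was sequenced as single-end reads by the authors, who aligned them with Hisat2 to GRCm38 (Ensembl 99) and deposited raw counts per gene made with HTSeq-count; reads were demultiplexed with bcl2fastq 2.17.1.14 per the submitters' processing notes. Library preparation is given by the labels as capture on poly-T beads and by the methods as a ribosomal depletion kit applied to polyA RNA. The strand setting and the treatment of multi-mapped reads are not given in the sources used here, so reads of overlapping genes and near-identical copies may be shared. All 55385 genes and all 22 columns were mapped, with 0 unmapped columns, and 55144 gene IDs matched GENCODE M21. The deposited tables of the authors' own genotype comparison, with their fold changes and p-values, were not used.

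Genes were tested with edgeR 4.0.16 (R 4.3.3) with TMM scaling, filterByExpr, quasi-likelihood test and Benjamini-Hochberg adjustment at 0.05, with the mouse as a block. Regions were paired by the animal numbers in the titles, and deviations from the region means correlated within mice (0.285, 0.365, 0.381, 0.201 and 0.487). Values of single libraries are CPM on TMM-scaled totals, SD is over 5 libraries, and no pair of wt libraries of the same region agreed within sampling noise. The mice are separate animals. With the mouse as a block, p-values are judged against the spread among mice of the EC minus HIP difference, not of the level itself. On simulated counts for the wt comparison over 17989 genes, 100 of 100 genes changed by a log2 of 1 and 96 of 100 changed by 0.5 were recovered, and 6 unchanged genes were called. The changed genes were few and had high counts. All genes had the same dispersion, and the mouse effect was shared by both regions. These rates therefore do not carry over to genes with low counts, or to a contrast in which so many genes differ.

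Named genes were the 12 protein-coding genes per direction with the largest change among those called with a mean of at least 5 CPM in the higher region and the same direction in all 5 mice, and in each gene list up to 4 called genes with the largest change and up to 2 uncalled genes of highest level, besides members of the marker lists of neighbouring tissue. Mef2c, Neurod6, Nr4a3, Gabrd, Bdnf, Ntrk2, Pdyn and the non-coding RNAs were added by hand once their values were known, and some genes that meet these rules are not reported here. The comparison and the gene lists were chosen with earlier results of these data known. Promoters came from RefSeq. Alternatives were no block, RLE factors, other filters, all libraries in a common fit, library size only (added after seeing the data), leaving out each mouse, limma 3.58.1 voom and DESeq2 1.42.0.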

Additional observations from a re-analysis of the deposited data

Results flagged for a closer look

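In 27 of 458 groups of 5 libraries examined (5.9%), for the named genes and the summed marker lists, the highest or lowest library lay far from the other 4; chance alone gives such a flag in about 1 in 20 groups. The EC library of mouse 2 was the highest for Adora2a (23.0 CPM), Drd2 (8.45 CPM), Rgs9 (18.3 CPM), Ppp1r1b (112 CPM) and the summed striatal list (505.4 CPM), and the lowest for the summed dentate gyrus list (206.0 CPM). In the EC library of mouse 1, Malat1 (584 CPM) and Zbtb20 (83.5 CPM) were far above the other EC libraries, and Adra1b (17.9 CPM) and Tnnc1 (8.51 CPM) were below them. The HIP library of mouse 2 was the lowest for C1ql2 (21.6 CPM) and Cacng8 (70.5 CPM) and the highest for the summed layer 6 list (182.5 CPM).

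The remaining cases were single genes. In EC, mouse 4 was low for Hrh3 (64.7 CPM) and Rara (4.66 CPM) and high for Kcnv1 (191.9 CPM), mouse 5 was low for Chrm5 (0.207 CPM) and high for Crh (3.90 CPM), and mouse 3 was low for Chrnb3 (1.83 CPM) and high for Plxnd1 (222.8 CPM). In HIP, mouse 3 was low for Kcnf1 (48.8 CPM) and Ntrk3 (212.6 CPM) and high for Tshz2 (122.9 CPM), mouse 4 was low for Penk (19.1 CPM), mouse 5 was low for Sema3a (3.10 CPM) and mouse 1 was high for Snhg11 (841 CPM) and Enpp6 (20.1 CPM).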

How the results depend on the processing

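The number of marker genes depended on the filter for low counts. When a gene needed at least 1 CPM in at least 5 libraries, 1555 genes were called and at least 2-fold apart and 966 of them were higher in HIP; 791 of the 2349 genes were then not tested. With no filter the number was 3296. Without the replicate block, which ignores the pairing by mouse, 8553 genes were called and 2307 were at least 2-fold apart, and 6 of the 11 microglial calls were lost. With limma voom 9632 genes were called and with DESeq2 8647. Of the 206 named genes, 6 lost their call without the block (Aif1, Bdnf, Fezf2, Grin2b, Grin2d and Ndnf) and between 2 and 5 on leaving out a mouse. The latter were Fezf2 (without mouse 1, 3, 4 or 5), Grik1 (1, 3 or 5), Grin2b (2 or 5), Grin2d (1, 2, 3 or 5), Ndnf (1, 2 or 5) and Penk (2, 3 or 4). Scaling by library size only lost the calls of Gabbr1, Grik1 and Grin2d, and DESeq2 that of Penk. Calls were gained too, 8 without mouse 4 (Aqp4, Etv1, Gja1, Hivep2, Slc17a6, Slc32a1, Sst and Thra), 4 without mouse 2 (Drd2, Grin1, Htr2c and Rgs9), 2 without mouse 5 (Htr2c and Trpc6), 7 with library size only, 4 with no filter, 3 with all 22 libraries in a common fit, 2 with the stricter filter and 1 each (Adora2a) without the block and with limma voom. Leaving out each mouse gave between 8154 and 9461 called genes and between 2330 and 2439 at least 2-fold apart.

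A change of direction was seen only for 8 genes that had not been called, out of the 206 genes named. Cck was at 0.00573, 0.00120 and 0.00669 on the log2 scale without the block, with RLE factors and with limma voom, and between -0.22 and 0.19 on leaving out a mouse. Drd2 was at 0.27 and 0.20 and Rgs9 at 0.25 and 0.15 without the block and with limma voom, and on leaving out a mouse they lay between -0.59 and 0.22 and between -0.42 and 0.16. With library size only, Camk2a was at -0.038 and Gad1 at -0.052. On leaving out a mouse, Nrgn lay between -0.16 and 0.11, Pvalb between -0.14 and 0.052, and Stxbp6 between -0.10 and 0.10. The cause of these changes was not tested. Without mouse 2, calcium channels numbered 3 higher in EC and 7 in HIP, against 6 and 5 with all mice. Genes near 1 CPM rest on few reads and have wide errors.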
